A study of Mus musculus with 20 samples.

Results

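Genes that mark fat cells were followed through left ventricle samples of statin-fed and untreated mice, both for differences between the groups and for signs that single samples carried fat tissue. The set held 9 genes: the hormones Adipoq, Retn and Lep, the secreted complement protease Cfd, the lipid droplet proteins Plin1 and Cidec, the lipase Lipe, the fatty acid carrier Fabp4 and the nuclear receptor Pparg. Every probe set that the platform annotation pairs with 1 of these symbols alone was used, which gave 11 of the 45037 probe sets on the array other than controls, for 7 of the 9 genes. Cfd and Plin1 were not analysed here.

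The samples came from 20 male C57BL/6J mice obtained at an age of 6 weeks, left to acclimate for 2 weeks and treated for 4 weeks. The groups of 4 mice received pitavastatin calcium (4.5 mg/kg/day), pravastatin sodium (21.0 mg/kg/day), rosuvastatin calcium (10.9 mg/kg/day) or atorvastatin calcium hydrate (11.4 mg/kg/day) as ground tablets mixed into standard chow, or, as control, the standard chow. Statins block the enzyme that makes the cholesterol precursor mevalonate. The mice were normal animals with no heart disease model, and each array held the RNA of 1 animal, so the p-values measure the spread between mice. The doses differed among the statins, and values of the statin groups are therefore given side by side with no test of one statin against another; a test over all 5 groups takes in their differences too.

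Adipocytes store triglyceride in a single large droplet and release adiponectin, resistin and leptin into the blood. PPARG drives their differentiation and switches on Adipoq, Fabp4, Cidec and Lipe. The mouse ventricle carries little fat of its own, and what there is lies around the atrioventricular groove and the great vessels, next to the atria. Fabp4 and Pparg are not limited to fat: heart muscle is rich in capillary endothelium, which makes FABP4 to move fatty acids, and Lipe is used by muscle as well. The markers that come closest to being adipocyte-only are therefore Adipoq, Retn, Lep and Cidec. In a bulk sample, fewer cells of a type and less RNA per cell cannot be told apart.

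All values are probe set signals on a linear scale, each array having been scaled by the authors to the same trimmed mean. The median signal of an array still ran from 41.7 in rosuvastatin mouse 3 to 144 in atorvastatin mouse 2. No array shared its values with another. All 15 of 15 ventricular cardiomyocyte markers were bright enough to test, as the tissue label calls for. Probe sets were tested when their mean over all 20 arrays lay in the brighter 50%, at a signal of at least 81.8, which left 22518. Of the adipocyte genes, Fabp4, Pparg and Lipe passed with 5 probe sets. Adipoq, Retn, Lep and Cidec stayed below that signal with their single probe sets, as did a further probe set of Fabp4 and of Lipe.

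Adipoq encodes adiponectin, the most adipocyte-restricted hormone of the set. Its signal was 13.7, 108.2, 15.3 and 17.7 in the pitavastatin mice, 23.4, 30.5, 19.6 and 9.17 in the pravastatin mice and 23.7, 41.5, 34.3 and 26.9 in the rosuvastatin mice. In the atorvastatin mice it was 15.7, 62.4, 44.8 and 12.8, and in the control mice 23.9, 11.8, 21.5 and 27.5. Pitavastatin mouse 2 stood far above all other mice, atorvastatin mouse 2 came next, and every statin group overlapped the controls. Within its own array, Adipoq lay above the median of all probe sets in 1 of 20 mice, pitavastatin mouse 2, at the 53.4th percentile. Across the 20 mice it ranged down to the 8.48th percentile with a median at the 20.2nd. Atorvastatin mouse 2, second by signal, was at the 27.3rd, on the array with the highest median signal. Rosuvastatin mouse 3, on the array with the lowest, was at the 47.2nd and atorvastatin mouse 3 at the 38.4th.

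Retn encodes resistin, a hormone that mouse fat cells secrete. Its signal was 25.6, 86.2, 23.0 and 13.3 in the pitavastatin mice, 19.4, 2.92, 65.8 and 9.44 in the pravastatin mice and 21.7, 53.2, 23.9 and 10.4 in the rosuvastatin mice. The atorvastatin mice had 20.4, 59.8, 48.7 and 6.44, against 6.72, 7.88, 46.1 and 74.8 in the control mice. Pitavastatin mouse 2 was again the highest of the 20, but here a pravastatin mouse, a rosuvastatin mouse, 2 atorvastatin mice and 2 control mice were also raised above the rest, and all groups overlapped. Lep, the gene of the satiety hormone leptin, stayed near the floor of the array, between 1.04 in pravastatin mouse 3 and 41.7 in pitavastatin mouse 4, and was in the lowest 25% of its array in 19 of 20 mice. Its medians were 11.5 in the pitavastatin, 3.72 in the pravastatin, 5.82 in the rosuvastatin and 8.75 in the atorvastatin mice, against 5.52 in the control mice.

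The start regions of Adipoq and Retn are shown because these genes had the closest agreement among the adipocyte-restricted members. Both are RefSeq sequences of build GRCm38.p6, from 250 bases before to 50 bases after the gene's start. Adipoq lies at chr16:23146286-23146585 on the plus strand and Retn at chr8:3655520-3655819 on the plus strand. Capitals mark CCAAT boxes read on either strand.
Adipoq: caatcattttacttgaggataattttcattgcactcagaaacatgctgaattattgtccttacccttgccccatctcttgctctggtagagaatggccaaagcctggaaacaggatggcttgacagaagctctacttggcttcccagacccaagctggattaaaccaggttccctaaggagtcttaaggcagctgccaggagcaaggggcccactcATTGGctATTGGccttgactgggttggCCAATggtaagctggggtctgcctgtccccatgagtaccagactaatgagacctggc
Retn: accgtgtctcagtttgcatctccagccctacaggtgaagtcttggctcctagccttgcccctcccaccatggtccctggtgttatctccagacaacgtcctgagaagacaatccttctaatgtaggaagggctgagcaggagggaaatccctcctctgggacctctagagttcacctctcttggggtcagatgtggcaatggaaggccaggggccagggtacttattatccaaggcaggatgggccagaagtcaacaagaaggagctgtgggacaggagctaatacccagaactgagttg
The search covered CCAAT, the half-site of nuclear receptors AGGTCA, 2 such half-sites 1 base apart as bound by PPARG with its partner RXR (AGGTCANAGGTCA), and the C/EBP-type motif TTGCNNAA, on both strands. The Adipoq region held 3 CCAAT boxes, at 32, 25 and 5 bases before the start, and none of the other motifs. The Retn region held none of the 4. CCAAT occurred in 37.4% of all 32851 promoters of the table, AGGTCA in 16.3%, TTGCNNAA in 10.8% and the direct repeat in 0.0396%. The direct repeat was in none of the 12 promoters tabulated for 8 of the 9 genes (all but Fabp4). These matches describe letters in a window only.

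**Figure D1:**
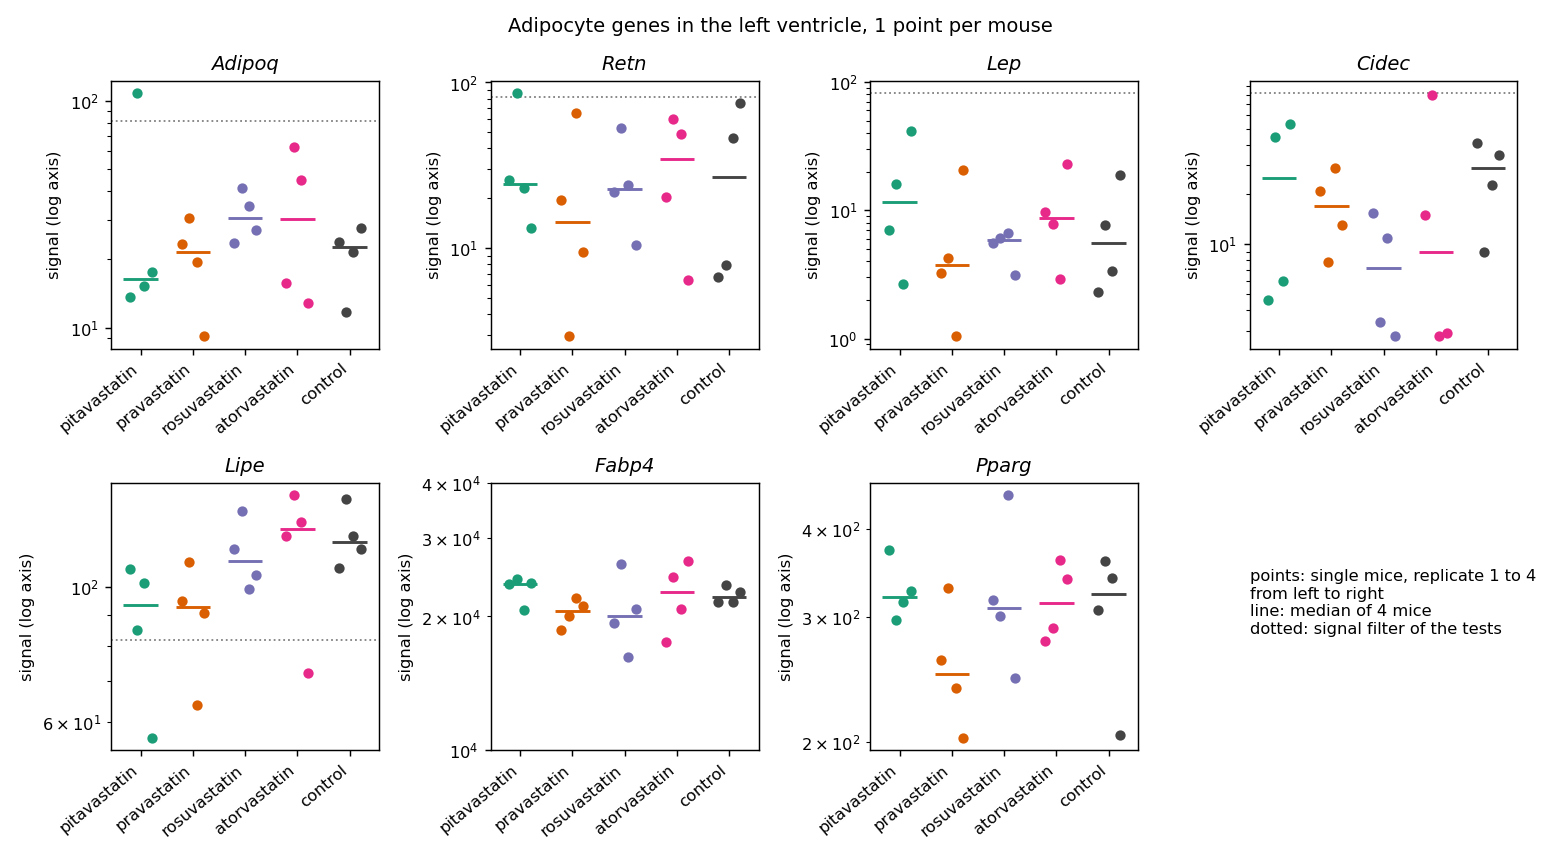
Probe set signal (log axis) of the 7 measured adipocyte genes, each by its brightest probe set, with 1 point per mouse and a line at the median of the 4 mice of a group. Adipoq, Retn, Lep and Cidec sit mostly below the dotted signal of 81.8 that a mean had to reach to be tested, with 1 mouse at 108.2 for Adipoq and 1 at 86.2 for Retn, while Fabp4 stays between 16192 and 26638.

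Cidec, whose protein fuses lipid droplets in fat cells, was at 4.57, 44.6, 5.97 and 53.1 in the pitavastatin mice, 21.1, 7.77, 28.8 and 13.04 in the pravastatin mice and 15.3, 3.41, 10.9 and 2.78 in the rosuvastatin mice. Atorvastatin mice had 15.0, 79.8, 2.77 and 2.89, against 40.8, 8.998, 22.7 and 34.6 in the control mice. Atorvastatin mouse 2 was the highest of all, the pitavastatin group split into a pair of low and a pair of high mice, and the groups overlapped. Lipe, the hormone-sensitive lipase that releases fatty acids from stored fat, was much steadier. Its main probe set gave 106.85, 84.9, 101.6 and 56.4 in the pitavastatin mice, 94.8, 109.8, 63.96 and 90.6 in the pravastatin mice and 115, 133, 99.2 and 104.7 in the rosuvastatin mice. It gave 121, 142, 128 and 72.1 in the atorvastatin mice, against 107.33, 139, 121 and 116 in the control mice. Here all 4 pitavastatin mice lay below all 4 control mice, by the narrowest of margins, and the other statin groups overlapped the controls. Over all tested probe sets, the pitavastatin and control mice did not overlap in 1.69%, and the shares for pravastatin, rosuvastatin and atorvastatin were 2.94%, 4.53% and 1.37%.

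Fabp4, the adipocyte fatty acid binding protein, was bright in every mouse. Its brightest probe set measured 23704, 24320, 20695 and 23733 in the pitavastatin mice, 18674, 20035, 21984 and 21070 in the pravastatin mice and 19336, 26209, 16192 and 20825 in the rosuvastatin mice. The atorvastatin mice had 17512, 24482, 20834 and 26638, against 21553, 23568, 21519 and 22678 in the control mice. The control mice were the closest together, and the rosuvastatin and atorvastatin mice spread to both sides of them. On its own array the probe set lay at the 99.46th percentile or higher in every mouse. Pparg, the master regulator of fat cell differentiation, measured 374, 298, 315 and 326 in the pitavastatin mice, 261, 330.4, 238 and 202 in the pravastatin mice and 317, 300.7, 447 and 246 in the rosuvastatin mice. It measured 278, 289, 361 and 340.02 in the atorvastatin mice, against 307, 360.3, 341 and 204 in the control mice. Every statin group overlapped the controls for both genes.

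The spread between mice of the same treatment was wider for the dim adipocyte genes, as it was for dim probe sets in general. On the log2(signal + 16) scale the SD within groups was 0.59 for Adipoq, 0.83 for Retn, 0.73 for Cidec and 0.47 for Lep, where probe sets below the signal limit had a median of 0.54. It was 0.19 for Fabp4, 0.27 for Pparg and 0.28 for Lipe, where tested probe sets had a median of 0.24. The summed signal of Adipoq, Retn, Cidec and Lep ran from 47.0 through a median of 88.3 to 255 in the pitavastatin mice, from 45.5 through 59.7 to 115 in the pravastatin mice and from 43.2 through 71.0 to 104 in the rosuvastatin mice. It ran from 45.2 through 80.04 to 209.8 in the atorvastatin mice, against 36.3 through 83.7 to 156 in the control mice. These ranges overlapped throughout, and none of the 4 genes was listed at 0 in any mouse.

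No adipocyte gene passed the test for a change with a statin. Adipoq averaged 5.47 ± 0.99 in the pitavastatin, 5.16 ± 0.37 in the pravastatin, 5.56 ± 0.24 in the rosuvastatin and 5.51 ± 0.71 in the atorvastatin mice, against 5.20 ± 0.28 in the control mice (log2(signal + 16), SD, n = 4 each). From high to low the order was rosuvastatin, atorvastatin, pitavastatin, control and pravastatin, and neighbours in it differed by less than the larger of their SDs. The same held for every neighbouring pair of groups in Retn, Cidec, Lep, Fabp4 and Pparg, and for 3 of 4 pairs in Lipe, whose rosuvastatin and pravastatin means lay 0.30 apart.

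By limma's moderated F test over the 5 groups, 0 of the 5 tested adipocyte probe sets passed an adjusted p of 0.05 (Benjamini-Hochberg over all tested probe sets), where 0.00444% of all tested probe sets did, which is 1 probe set (49 without control mouse 1, and 0 of the 5). At an unadjusted p of 0.05 the share was 6.24%, and again 0 of the 5. Adjusted p was 0.857, 0.915 and 0.787 for the Fabp4 probe sets, 0.803 for Pparg and 0.787 for Lipe in limma. With no signal limit, limma gave adjusted p of 0.956 for Adipoq, 0.985 for Retn, 0.917 for Cidec and 0.924 for Lep, where 0.00222% of all 45037 probe sets passed.

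Against control, 0 of the 5 probe sets passed in limma for any statin, and the share over all tested probe sets was 0% in each of the 4 comparisons. Without control mouse 1, limma called 23 probe sets for pravastatin, 17 for rosuvastatin and 18 for atorvastatin over the whole array, and still 0 of the 5. At an unadjusted p of 0.05 the share was 1.93% for pitavastatin, 3.93% for pravastatin, 11% for rosuvastatin and 4.57% for atorvastatin. For the mean of the 4 statins it was 3.05%, with 0% after adjustment. A single adipocyte probe set reached an unadjusted p of 0.05 in limma: the third of Fabp4, at -0.49 on the log2 scale (SE 0.20) for pravastatin against control, with an unadjusted p of 0.0267 and an adjusted p of 0.992. Its signals were 114, 102.7, 114 and 74.6 in the pravastatin mice, against 176, 151, 100.7 and 174 in the control mice, which overlap. The brighter Fabp4 probe sets gave -0.13 and -0.07 for the same comparison.

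The brightest Fabp4 probe set differed from control by 0.05 for pitavastatin, -0.13 for pravastatin, -0.13 for rosuvastatin and -0.01 for atorvastatin (log2, SE 0.13 each). Its difference for the mean of the 4 statins was -0.06, with a 95% interval of -0.28 to 0.16. Pparg differed by 0.13, -0.21, 0.11 and 0.08 in the same order (SE 0.19 each). By its main probe set, Lipe was below control in each comparison. The differences were -0.43 for pitavastatin (95% interval -0.88 to 0.03), -0.39 for pravastatin (-0.84 to 0.07), -0.09 for rosuvastatin and -0.08 for atorvastatin (SE 0.22 each). The limma p-values of the pitavastatin and pravastatin differences were 0.0633 and 0.0917 unadjusted, and 1 and 0.992 adjusted. The dimmer Lipe probe set, fitted with no signal limit, gave 0.08, 0.11, -0.48 and -0.05 in the same order (SE 0.40 each).

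For the dim genes the intervals were wide. Adipoq differed from control by 0.28 for pitavastatin, -0.03 for pravastatin, 0.36 for rosuvastatin and 0.32 for atorvastatin (SE 0.41 each, log2). The pitavastatin difference turned to -0.22 without pitavastatin mouse 2. For the mean of the 4 statins the Adipoq difference was 0.23, with a 95% interval of -0.44 to 0.90. Retn differed by 0.17, -0.28, -0.04 and 0.10 (SE 0.53 each) and Lep by 0.36, -0.07, -0.13 and 0.16 (SE 0.32 each). Leaving out 1 array at a time moved the Retn differences over -0.21 to 0.54, -0.70 to 0.09, -0.33 to 0.33 and -0.20 to 0.47, so each took both signs. The Lep differences moved over 0.04 to 0.59, -0.31 to 0.13, -0.24 to 0.07 and -0.04 to 0.35. Cidec had differences of -0.14, -0.32, -0.80 and -0.35 (SE 0.47 each), and its largest difference, for rosuvastatin, had an interval of -1.77 to 0.18. Differences near the floor understate a change, since 16 was added to every signal.

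**Figure D2:**
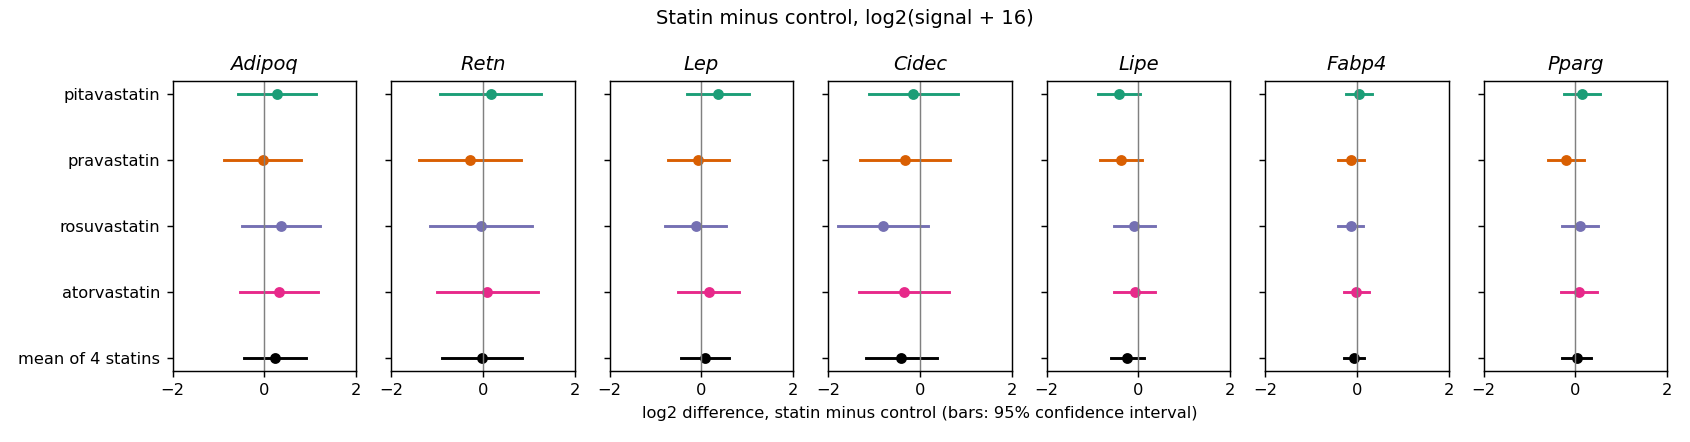
Log2 difference from control (x axis, log2(signal + 16)) of the 7 adipocyte genes for each statin and the mean of the 4 statins, as points with 95% confidence intervals from limma. All intervals cross 0, and those of Adipoq, Retn, Lep and Cidec are wider than those of Fabp4, Pparg and Lipe.

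No other gene enriched in adipocytes was called either. Of 18 such genes with a named probe set, 13 were bright enough to test, and 0 passed in any comparison with limma. Higher and lower than control were 6 and 7 genes for pitavastatin (median -0.01), 5 and 8 for pravastatin (-0.04), 9 and 4 for rosuvastatin (0.06) and 6 and 7 for atorvastatin (-0.02). The medians over all tested probe sets were -0.003, -0.02, -0.02 and -0.03 on the same log2 scale. The genes farthest from control in the list were Acvr1c, an activin receptor of fat cells, at -1.15 and Car3, a carbonic anhydrase of fat and muscle, at -0.98, both for rosuvastatin. Their limma p-values were 0.0183 and 0.0475 unadjusted and 0.452 adjusted for both; they were named after their values were seen. The dim members of the list included Adig, an adipogenesis factor, at 25.1 to 131, and Lgals12, a droplet-bound galectin, at 3.29 to 68.1.

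Brown fat markers were looked at in the same way. Ucp1, the uncoupling protein that defines brown fat and was looked up for that reason, had signals of 1.78 to 69.4 with a median of 34.9. Of 11 brown fat markers 5 were tested and 0 passed in any comparison with limma. Higher and lower than control were 3 and 2 of them for pitavastatin (median 0.03), pravastatin (0.09) and rosuvastatin (0.14), and 2 and 3 for atorvastatin (-0.22). At an unadjusted limma p of 0.05 it was 2 of the 5 for atorvastatin, beside 4.57% of all tested probe sets, and 0 for each other statin. Among 13 lipid genes that heart muscle shares with fat, 0 passed with limma, while 7, 3, 2 and 1 lay above control for pitavastatin, pravastatin, rosuvastatin and atorvastatin. Their medians were 0.04, -0.13, -0.09 and -0.10. Angptl4, which inhibits lipoprotein lipase, and Plin2, a droplet coat protein of many tissues, were the members closest to Adipoq over the mice, at r = 0.26 and 0.11.

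Across the 20 mice, no correlation of Adipoq with another adipocyte gene passed over all probe sets. Fat attached to some samples and not to others would raise adipocyte genes in the same mice, which is the question this comparison addresses. A single pair at the smallest permutation p, 1e-05, could not pass the adjustment unless other probe sets reached that p too. The lack of a call therefore cannot decide the question. Adipoq, although below the signal limit, was taken as the anchor. Its Pearson correlation with Retn was 0.62 (Spearman's rho 0.51, 20 mice), with unadjusted permutation p of 0.00299 and 0.0243 and an adjusted p of 1 over all 45036 probe sets (0.948 with Retn as the anchor). Without pitavastatin mouse 2 and atorvastatin mouse 2, the mice farthest from the Adipoq median, r was 0.41. Taken within groups r was 0.62, and after removing the median signal of the array 0.61. Pravastatin mouse 2 (30.5 Adipoq, 2.92 Retn) and control mouse 4 (27.5 Adipoq, 74.8 Retn) had nearly the same Adipoq signal and lay near opposite ends of Retn.

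With Cidec the correlation of Adipoq was 0.37 (rho 0.17, unadjusted permutation p 0.112) and turned to -0.12 without pitavastatin mouse 2 and atorvastatin mouse 2. Without the mice farthest from the Cidec median (atorvastatin mouse 2 and pitavastatin mouse 4) the correlation was 0.30, and within groups 0.50. With Lep it was -0.10, with Lipe 0.20, with Pparg 0.08 and with Fabp4 0.13 (rho 0.02), and each of these had an adjusted permutation p of 1. The third Fabp4 probe set reached 0.49 (unadjusted permutation p 0.0307, rho 0.39), again with an adjusted p of 1. In all, 0 of the 5 tested adipocyte probe sets were called for correlation with Adipoq, where 0% of 22518 were. At an unadjusted p of 0.05 it was 2.56%, and 1 of the 5. Those 5 belong to Fabp4, Pparg and Lipe, which are not limited to fat, and Retn, Lep and Cidec lay below the signal limit. The count therefore cannot show whether samples carried fat.

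Among all 21 pairs of the 7 genes, Adipoq with Retn was the highest. Lep with Lipe was the lowest, at -0.48 (rho -0.12). Its unadjusted permutation p was 0.0328 with Lep as the anchor and 0.0341 with Lipe, and its adjusted p 0.732 and 1. It was 0.04 without the mice farthest from the Lep median (pitavastatin mouse 4 and atorvastatin mouse 4) and -0.46 without those farthest from the Lipe median (pitavastatin mouse 4 and pravastatin mouse 3). Retn with Cidec was at 0.37 and Fabp4 with Lep at 0.37. Pparg, whose protein switches on Adipoq, Fabp4, Cidec and Lipe in fat cells, had correlations with the other members between -0.27 with Cidec and 0.14 with Lipe. Some of the genes were also related to the median signal of the array. The brightest Fabp4 probe set had r = 0.66 with it (adjusted permutation p 0.00693) and the second 0.61 (adjusted permutation p 0.0173), where 38.3% of the tested probe sets were called for that measure. Pparg was at -0.50, with an adjusted permutation p of 0.0595. With no signal limit, Cidec had 0.52 (adjusted permutation p 0.0451) and the dimmer Lipe probe set 0.84 (adjusted permutation p 9.26e-05). Without rosuvastatin mouse 3 and atorvastatin mouse 2 the values were 0.45 and 0.38 for Fabp4, -0.36 for Pparg, 0.40 for Cidec and 0.77 for Lipe. Adipoq and Retn were at 0.13 and 0.22 with the same measure.

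**Figure D3:**
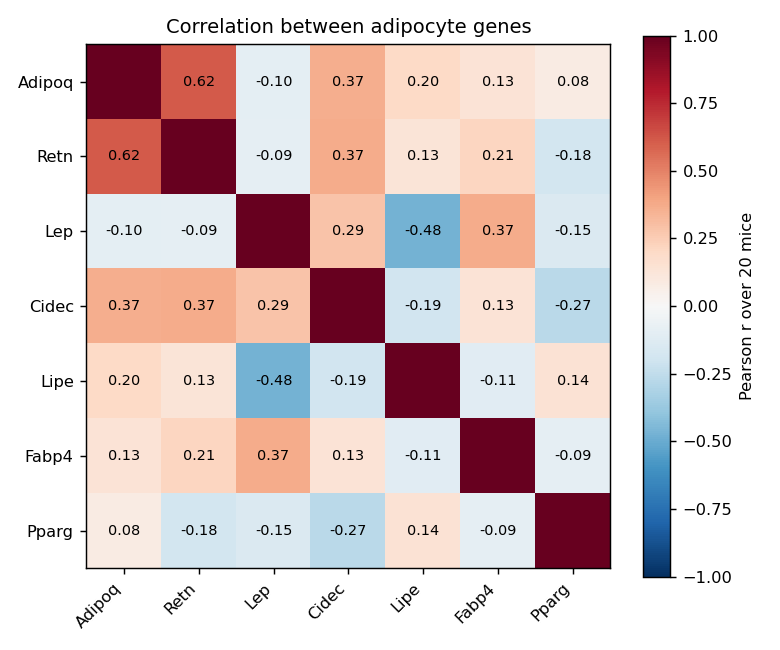
Pearson r over 20 mice for each pair of the 7 adipocyte genes, each by its brightest probe set, on the log2(signal + 16) scale. Adipoq with Retn, at 0.62, is the only pair above 0.5, and Lep with Lipe, at -0.48, is the lowest.

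Pitavastatin mouse 2, the mouse with the highest Adipoq and Retn, also stood out in genes of the atria. It was among the top 3 of the 20 mice in 6 of 6 atrial markers, where it was so in 15.1% of all probe sets, and was the highest in 3 of the 6. Of the 6 markers, 3 lay under the signal limit, among them Bmp10, at only 10.4 in this mouse. Myl4, the atrial essential light chain of myosin, had a signal of 3382 there against a median of 497 over the 20 mice. Sln, the sarcolipin of atrial muscle, had 341 there against a median of 26.4, and Myl7, the atrial regulatory light chain, 1239.5 against 24.2; these genes were chosen after their values were seen. The next mouse in atrial markers, rosuvastatin mouse 3, had 3052 for Myl4, 298 for Sln and 1259 for Myl7, with an Adipoq signal of 34.3 and a Retn signal of 23.9. Adipoq, Retn, Myl4 and Sln were at their highest in pitavastatin mouse 2. Rosuvastatin mouse 3 had the atrial genes high and Adipoq and Retn signals within the range of the other mice. It had the highest Pparg signal (447) and the lowest Fabp4 signal (16192) of the 20, on the array with the lowest median signal. Within that array Adipoq lay at the 47.2nd percentile and Retn at the 40.9th, against medians of 20.2 and 24.45 over the mice. Pitavastatin mouse 2 had 53.4 and 48.5 for these genes. Fabp4 in rosuvastatin mouse 3 was at the 99.58th percentile, which was also its median over the mice.

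Over the 6 atrial markers the summed signal ran from 7448 to 17255 in the pitavastatin, 4808 to 8851 in the pravastatin, 7118 to 13675 in the rosuvastatin and 4188 to 10552 in the atorvastatin mice, against 7358 to 9391 in the control mice. None of the markers was at 0. With Adipoq, all 3 tested atrial markers correlated positively, Myl4 at 0.59 and Dkk3 at 0.50 (unadjusted permutation p 0.0113 and 0.0266, adjusted p 1) and Nppa at 0.18. Pitavastatin mouse 2 was the highest of the mice in Adipoq, Myl4 and Nppa and the second in Dkk3. Correlations of the atrial markers without that mouse are not given here. Over 10 skeletal muscle markers, rosuvastatin mouse 3 had the highest summed signal (9591) and pitavastatin mouse 2 the next (7602). In pitavastatin mouse 2 most of that sum was Acta1, at 7246.5 against a median of 2862 over the mice. This mouse was among the top 3 in 3 of the 10 markers and the lowest of the 20 in Tnni2, Myh1 and Tnnt3. The part of attached atrial or other tissue in these values was not tested.

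In the wider lists of fat genes, pitavastatin mouse 2 was among the top 3 in 2 of 18 other adipocyte-enriched genes and 5 of 11 brown fat markers. The share over all probe sets was 15.1%. Atorvastatin mouse 2 was second by signal for Adipoq and highest for Cidec and Lipe. It was the highest of all in 5 of 18 adipocyte-enriched genes, 5 of 11 brown fat markers and 7 of 13 epicardial and mesothelial markers. Of these lists, 5, 6 and 9 genes lay under the signal limit. Over the whole array that mouse was the highest in 31.6% of probe sets, and in 41.7% of those under the signal limit. The adipocyte-enriched and brown fat counts lie near these shares. The epicardial and mesothelial count of highest values lies above them, and that difference was not tested. Among the top 3, atorvastatin mouse 2 was in 5 of 18, 6 of 11 and 7 of 13 genes of these lists. The share was 46.2% over all probe sets and 61.3% under the signal limit. By that measure the epicardial and mesothelial count lies between the shares. The array of atorvastatin mouse 2 had the highest median signal of the 20. The part of that array measure in the result was not tested.

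**Figure D4:**
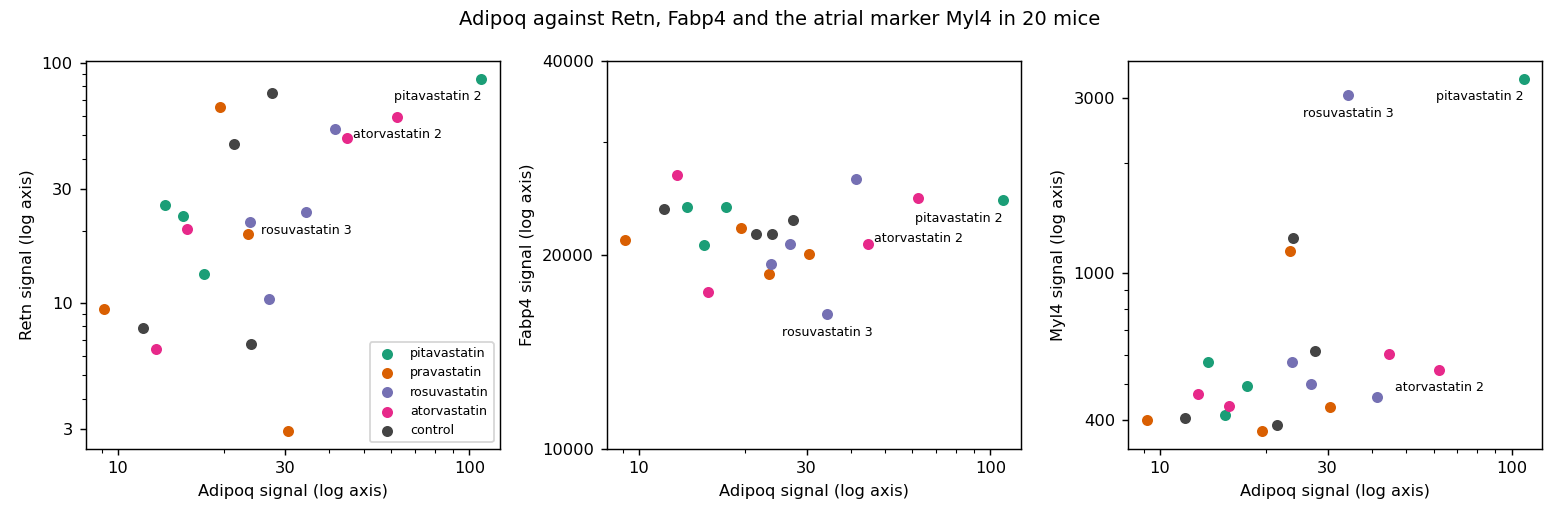
Signals of Retn, Fabp4 and Myl4 (y axes) against Adipoq (x axes), log axes, 1 point per mouse coloured by group. Pitavastatin mouse 2 is at the top right for Retn and Myl4, rosuvastatin mouse 3 is high in signal for Myl4 alone, and Fabp4 is scattered against Adipoq (r = 0.13).

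The 10 genes whose pattern over the mice was most like that of Adipoq, among 11229 genes, were Ftsj3 (r = 0.69), Cdh4 (0.67), Pex5 (0.66), Enpp3, Foxc1 and C1s1 (each 0.64), Slc35b3 and Ifitm6 (0.63) and Rhou and Slc16a7 (0.61). Each had an adjusted permutation p of 1, and none is an adipocyte marker of the lists used here. Without pitavastatin mouse 2 and atorvastatin mouse 2 the value of Enpp3 was 0.15 and that of Ifitm6 0.19, while Ftsj3 kept 0.59 and Pex5 0.59. Of the other adipocyte-enriched genes, 10 of 13 correlated positively with Adipoq, with a median of 0.09 beside -0.02 over the 11229 genes. Among markers of other cells, positive correlations were found in 9 of 12 endothelial (median 0.20), 4 of 4 epicardial and mesothelial (0.23), 9 of 12 fibroblast (0.09), 2 of 3 lymphocyte (0.08) and 11 of 15 ventricular cardiomyocyte markers (0.04), against 1 of 12 macrophage (-0.10) and 1 of 2 skeletal muscle markers (-0.01). The highest were Scd1, a fatty acid desaturase, at 0.38 and Pde3b, the phosphodiesterase through which insulin restrains lipolysis, at 0.32. Among brown fat markers Ebf2 was at 0.53 and Dio2 at 0.47, and the median of the 5 tested was -0.07. The closest endothelial markers were Egfl7 at 0.50 and Tek at 0.38, the closest epicardial and mesothelial markers Krt18 at 0.48 and Tbx18 at 0.38, and the closest lymphocyte markers Ighm at 0.34 and Ms4a1 at 0.08. For fibroblasts they were Tcf21 at 0.25 and Dpep1 at 0.20, for macrophages Folr2 at 0.19 and Cd68 at -0.005, for skeletal muscle Acta1 at 0.34 and Tnni2 at -0.36 and for ventricular cardiomyocytes Myl3 at 0.09 and Myh6 at 0.07. Each of these had an adjusted permutation p of 1.

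Over the mice, Fabp4 went up and down with genes of heart muscle. With Fabp4 as the anchor, 5056 of 22515 probe sets passed an adjusted permutation p of 0.05, or 22.5%. The ventricular cardiomyocyte markers held 13 of 15 positive correlations, 12 of them called, with a median r of 0.89. Closest to Fabp4 were Idh3g, Ndufv3, Atp5c1 and Cox6b1, all of mitochondrial energy metabolism, the fatty acid transporter Cd36, the lipase Lpl and the cardiac myosins Myh6 and Myl2, at r of 0.93 to 0.94. Each had an adjusted permutation p of 0.000733, from the smallest p that 100000 shuffles can give, 1e-05. Rps20, a ribosomal protein, and Tnnt2, cardiac troponin T, completed the closest 10 at 0.93.

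Of the endothelial markers, 2 of 12 correlated positively, and 1 with a negative correlation was called, with a median of -0.12; the highest was the endothelial cadherin Cdh5 at 0.29 (adjusted permutation p 0.381). Of the other adipocyte-enriched genes 4 of 13 were positive and 3 were called, among them Acvr1c and Car3, both at 0.63 (adjusted permutation p 0.0209 and 0.0225) and a median of -0.23. Brightness went along with this pattern. All 448 other probe sets of the brightest 1% correlated positively with Fabp4, with a median of 0.85, where the remaining 22068 tested had a median of -0.04. Fabp4 and the mean log2 signal of the brightest 1% had r = 0.93 (adjusted permutation p 0.000547), a measure with which 18.5% of the tested probe sets were called; r was 0.94 within groups and 0.88 without the 2 mice farthest from the median of that mean. The part of the array's brightness in the result was not tested.

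**Figure D5:**
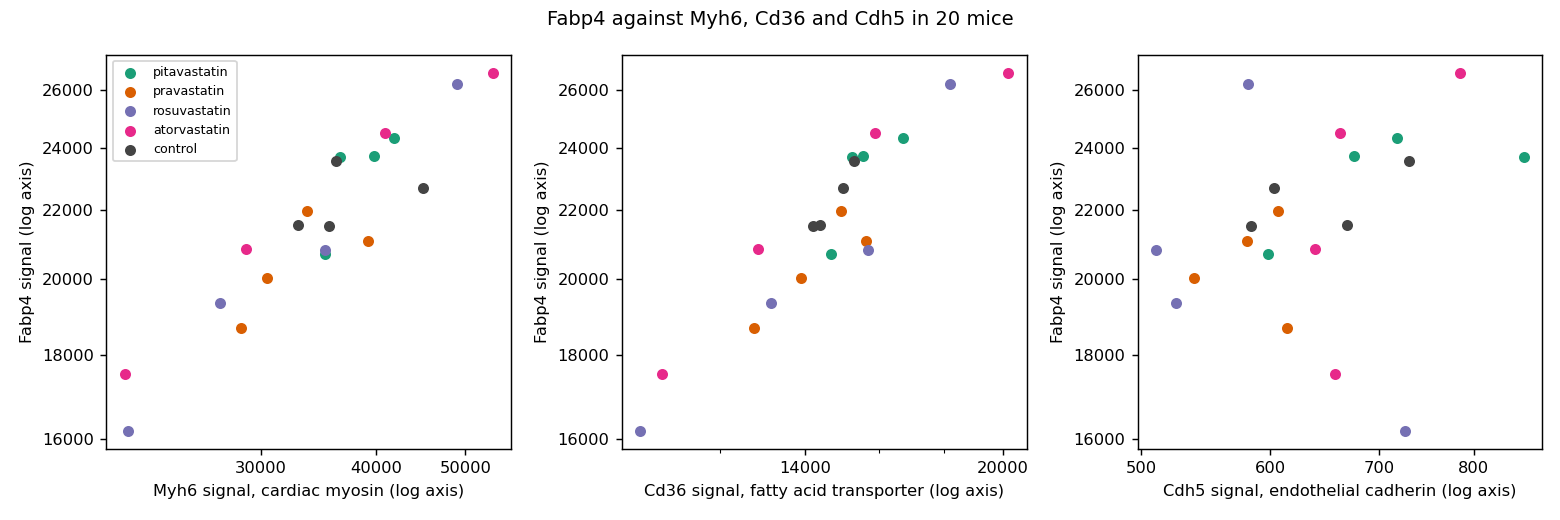
Fabp4 signal (y axes) against the cardiac myosin Myh6, the fatty acid transporter Cd36 and the endothelial cadherin Cdh5 (x axes), log axes, 1 point per mouse coloured by group. Fabp4 runs along a line with Myh6 (r = 0.93) and Cd36 (r = 0.93) and scatters against Cdh5 (r = 0.29).

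The 4 probe sets of Fabp4 did not behave alike. The brighter pair correlated at 0.87 over the 20 mice, and the brightest correlated at 0.20 with the third and -0.01 with the dimmest. The Lipe pair was at -0.10. The third passed the signal limit, and its difference for pravastatin was not matched by the brighter pair. The genes most like Pparg were Pold2 (0.79), Commd4 (0.79) and Fkbpl (0.78), each with an adjusted permutation p of 0.188, and the genes most like Lipe were Ehhadh (0.75), Adcy3 (0.74) and Phf13 (0.72), each with an adjusted p of 1. Retn was most like Khdrbs3, at 0.76 (adjusted permutation p 0.901).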

How the data were processed

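Left ventricle RNA of 20 mice was hybridised to 1 Affymetrix array per mouse, after amplification from 100 ng with the NuGEN Ovation system, per the labels. The deposited values are probe set signal intensities on a linear scale, which the authors computed using MAS5 (version not given in the sources used here), according to the submitters' processing notes; the files show a common trimmed mean (2% off each end) and no values at or below 0. Detection calls were not used here. No genome build is given in the sources used here, so genes carry no coordinates apart from the RefSeq promoters.

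Of 45101 probe sets, 64 controls were left out. The annotation gives 34945 probe sets 1 symbol, 932 several and 9160 none, and only those with 1 were named. Signals were used as log2(signal + 16). The brighter 50% by mean of these values entered the tests, run in limma 3.58.1 under R 4.3.3 (1 mean per group over all 20 arrays, empirical Bayes with a trend, 15 residual and 4.23 prior degrees of freedom). P-values were adjusted by Benjamini-Hochberg over all tested probe sets, and calls were made at 0.05. Values of dim members come from the same fit with no signal limit. Correlations over 20 mice have two-sided permutation p-values from 100000 shuffles of the anchor, adjusted over all probe sets, for 7 anchors. Computations used Python 3.11.15, numpy 2.4.6 and pandas 2.3.3. The number of arrays limits the precision. Both procedures were tested on simulated data.

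A gene with several probe sets is represented by the brightest one by mean. Named outside the members were the 10 genes most like Adipoq, and from each marker list any gene called between groups or with Adipoq (there was none) and the 2 genes closest to Adipoq; genes most like other members, and others marked in the text, were named after their values were seen. The members and lists were chosen with earlier results of these data known. Alternatives were quantile normalization, centring on the array median, pseudocounts of 1 and 64, no signal limit, the brightest 30%, no trend, array weights, a block for the replicate number, the array median as a covariate, 1 probe set per gene, only the groups compared, Spearman's rho, and leaving out each array. The labels give the groups the same replicate numbers and do not say what a number marks. By the deviations of same-numbered mice, all 4 pairs of pitavastatin with control mice had r over 0.1 (0.13 to 0.44). No other pair of groups met this mark in all its pairs. Over all groups 19 of 40 same-numbered pairs were over 0.1, so the mark alone cannot establish a pairing. Leaving out rosuvastatin mouse 3 with atorvastatin mouse 2 was added after seeing the data.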

Additional observations from a re-analysis of the deposited data

Results flagged for a closer look

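In 3 of 55 combinations of a probe set and a group, 1 of the 4 mice lay apart from the other 3 beyond Dixon's critical value for 4 samples, where chance gives about 1 in 20. Adipoq in pitavastatin mouse 2 was at 6.96 on the log2(signal + 16) scale, with the nearest mouse of its group at 5.07. Fabp4 (brightest probe set) in pitavastatin mouse 3 was the lowest of its group at 14.34, with the nearest at 14.53. The dimmer Lipe probe set in atorvastatin mouse 2 was at 6.92, with the nearest at 5.31.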

How the results depend on the processing

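The count of adipocyte probe sets called was 0 under each of 228 alternative values over the 7 comparisons (limma for the 6 between groups, permutation for the correlation with Adipoq), and the smallest adjusted p of a member difference was 0.307, for Pparg under centring on the array median. Fabp4 for rosuvastatin minus control changed sign to 0.25 under that centring (limma adjusted p 0.327), which puts the median of all tested probe sets at 0.36 there and at 0.14 for the mean of the statins (both -0.02 without centring), and to 0.0181 with the array median as a covariate (limma adjusted p 0.989); the cause was not tested. Cidec for rosuvastatin was -1.69 with a pseudocount of 1. The correlation of Retn with Adipoq ranged from 0.41 to 0.69 and that of Cidec with Adipoq from -0.12 to 0.56; Lep with Adipoq was -0.39 without the 2 mice farthest from the Adipoq median and -0.32 without pitavastatin mouse 2. Over all probe sets, calls by the limma F test numbered 1, and 185 with array weights, 49 without control mouse 1 and 6 with the replicate number as a block. Calls against control over all probe sets were 0 for each statin; with array weights limma made 16 for pravastatin and 12 for rosuvastatin, and without control mouse 1 it made 23, 17 and 18 for pravastatin, rosuvastatin and atorvastatin and 10 for the mean of the statins. Correlation calls with Adipoq over all probe sets were 0, and 11 with the replicate block. The replicate block kept the adipocyte count at 0 in each comparison and gave Retn with Adipoq 0.62. The block changed no other call. Over 40 pairs of mice with the same number in different groups, r of the deviations ran from -0.54 to 0.69 with a median of 0.08, 19 were over 0.1, and 7 of 20 mice correlated best with their own number. Dim signals limit the result for Adipoq, Retn, Lep and Cidec, which lie near the floor of the array.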
